A study of Mus musculus with 3 samples.

Results

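Heat shock chaperones are proteins that hold and refold other proteins, and 9 of their genes were followed across the liver cells of 2 single-cell transcriptome libraries. The genes were chosen by name from the 23860 genes listed in either table. The 5 counted as inducible were Hspa1a, Hspa1b, Dnajb1, Hsph1 and Hsp90aa1, and the 4 counted as constitutive were Hspa8, Hsp90ab1, Hspd1 and Hspa5. All 9 were listed in both libraries.

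The first library is taken to be the one labelled MCD. Its counts, deposited under the name WT, were tied to that label by elimination, as the only other transcriptome counts are named HFHC. The header of its table carries the name APAP0h, and the study describes wild-type C57BL/6J mice on normal chow diet (NCD) as its control, so the label, the header and the description give different names, and it is called the MCD library here. Elsewhere in the study MCD stands for a methionine-choline deficient diet, which induces steatohepatitis, whereas the livers it describes for single-cell sequencing were those of NCD and HFHC mice, so the diet of these mice was not settled. The second library, called the HFHC pool, held cells of WT mice and of Chi3l1-/- mice (spelled Chil1-/- in the label) that received a high-fat, high-cholesterol diet over 16 weeks. These cells were captured together, and the genotype of a cell was not used here. Chi3l1 encodes a secreted chitinase-like protein and was deleted in the whole body in the knockout. The labels call the cells parenchymal and the study calls them non-parenchymal, and how many mice entered each library is not given in the sources used here. With 1 library per condition, diet, genotype mixture, capture and sequencing cannot be told apart, no test between conditions was possible, and all intervals below are exact 95% intervals of the counts of unique molecular identifiers (UMIs), which cover counting error only.

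HSP70 proteins bind exposed stretches of unfolded proteins, J-domain proteins such as DNAJB1 deliver those clients to them, and HSPH1 acts as a nucleotide exchange factor that releases them. HSP90 proteins act later on signalling proteins and receptors. When proteins unfold, the transcription factor HSF1 binds heat shock elements (repeats of the letters GAA and TTC) and drives the inducible members, whereas HSPA8 and HSP90AB1 are made all the time, HSPD1 folds proteins inside mitochondria, and HSPA5 (BiP) serves the endoplasmic reticulum (ER) and is driven by the unfolded protein response. In the liver, secretory hepatocytes and plasma cells load the ER heavily, and tissue dissociation is a known trigger of the heat shock genes.

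After the study's filter (200 to 4000 genes and a mitochondrial share of at most 25%), 23346 cells with a median of 1322.5 UMIs were kept in the MCD library and 19625 cells with a median of 1622 UMIs in the HFHC pool. Of these, 19164 and 15998 cells fell in 13 classes that were named from marker genes: Kupffer cell, monocyte-derived macrophage (MoMF), monocyte, non-classical monocyte, neutrophil, the conventional dendritic cells cDC1 and cDC2, plasmacytoid dendritic cell (pDC), B cell, T cell, NK cell, endothelial cell and hepatocyte. Each name stands for cells like that type. The chaperones were left out of the genes used for clustering. Cell indices occurred in both libraries 507 times among the kept cells. The hepatocyte class held 3416 and 9150 cells, with 3.48% and 2.45% of its UMIs from the 9 hepatocyte markers and a median mitochondrial share of 2.64% and 0.351%.

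Hspa1a and Hspa1b are neighbouring genes without introns that encode nearly the same HSP70 protein. Hspa1a lies on chromosome 17 at 34969190 to 34972156 and Hspa1b at 34956436 to 34959238, both on the minus strand (GENCODE annotation of GRCm38). The 250 bases before their transcript starts, taken from RefSeq (GRCm38.p6), are shown because these promoters drive the members that differed most between the libraries, with the heat shock element GAANNTTC in capitals.
Hspa1a, chr17:34972157-34972406, minus strand: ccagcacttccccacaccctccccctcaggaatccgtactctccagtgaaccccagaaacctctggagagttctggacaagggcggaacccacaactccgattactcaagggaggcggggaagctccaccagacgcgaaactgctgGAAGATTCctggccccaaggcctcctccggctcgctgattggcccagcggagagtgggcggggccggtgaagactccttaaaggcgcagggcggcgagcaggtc
Hspa1b, chr17:34959239-34959488, minus strand: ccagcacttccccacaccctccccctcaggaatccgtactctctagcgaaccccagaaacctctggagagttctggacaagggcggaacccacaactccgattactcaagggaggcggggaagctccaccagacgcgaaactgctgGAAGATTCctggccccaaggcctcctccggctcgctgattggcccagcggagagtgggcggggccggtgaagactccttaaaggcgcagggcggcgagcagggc
The stretches were identical at 247 of 250 positions. With positions counted from 1 at the 5′ end and the Hspa1a base first, they differed by C44T, T47C and T249G. In both, the element began 104 bases before the start.

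Windows of 300 bases around the start were at hand for 6 of the 9 members (Hspa1a, Hspa1b, Dnajb1, Hsph1, Hspd1 and Hspa5). Elements of the letters GAANNTTC or TTCNNGAA, read on both strands, occurred in 15.1% of all 32851 windows, and elements with 3 such units in a row in 0.603% of them. Both windows of Hsph1 and 1 of the 2 windows of Hspd1 held 3-unit elements, the other Hspd1 window held none of the elements, and neither window of Dnajb1 held any element with these exact letters. The Hspa5 window held the ER stress element (CCAAT and CCACG with 9 bases of any kind between them), found in 0.119% of all windows. These 3 elements are shown in capitals within 30 bases each, because they differ from the paired element of the HSP70 genes.
Hsph1, chr5:149636279-149636308, minus strand: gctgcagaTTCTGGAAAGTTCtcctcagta
Hspd1, chr1:55088053-55088082, minus strand: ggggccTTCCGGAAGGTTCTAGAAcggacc
Hspa5, chr2:34772020-34772049, plus strand: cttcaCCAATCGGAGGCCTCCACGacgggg
All 3 stretches lie inside the gene spans of the GENCODE annotation given below, which start upstream of them. In RefSeq those of Hspd1 and Hspa5 lie before a transcript start and that of Hsph1 after it. A match of letters describes the window and was not tested for binding.

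In the MCD library, Hspa1a and Hspa1b together split the classes into macrophages, monocytes and conventional dendritic cells with high levels and the other classes, neutrophils included, with low levels. In UMIs per 1000000 UMIs of the class (CPM), the summed level was 435 in non-classical monocytes, 403 in MoMFs, 355 in cDC2, 244 in Kupffer cells, 192 in monocytes and 179.8 in cDC1. It was 26.8 in B cells, 26.5 in endothelial cells, 20.8 in neutrophils, 18.8 in T cells, 18.4 in hepatocytes, 12.3 in pDCs and 4.86 in NK cells. No class lay between 26.8 and 179.8 CPM. The MoMF value came from 87 cells. In the 82 of them that could be thinned to 1000 UMIs, the tenth of cells with the most UMIs of Hspa1a, Hspa1b, Dnajb1 and Hsph1 carried 76.0% of these UMIs, and the highest cell held 17. The MoMF log2 ratio of Hspa1a, 1.55, was 2.27 with classes from marker UMIs. Within the low group every pair of neighbours in this order had overlapping intervals, and the NK cell value rested on 5 UMIs.

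In the HFHC pool the summed HSP70 level was high in nearly every class. It was 2322 CPM in non-classical monocytes, 1687 in cDC2, 1631 in cDC1, 1338 in monocytes, 1258 in B cells, 1195 in Kupffer cells and 1188 in MoMFs. T cells followed with 706 CPM, pDCs with 481, NK cells with 469 and endothelial cells with 418, whereas neutrophils had 79.7 and hepatocytes 45.3. B cells thus moved from the low group into the range of the macrophages, whose intervals theirs overlapped through Kupffer cells. Hepatocytes and neutrophils were the 2 lowest classes of the pool, although their summed level was also above that of the MCD library. The fold was 3.84 in neutrophils (interval 2.68 to 5.46) and 2.44 in hepatocytes (1.91 to 3.24).

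**Figure D1:**
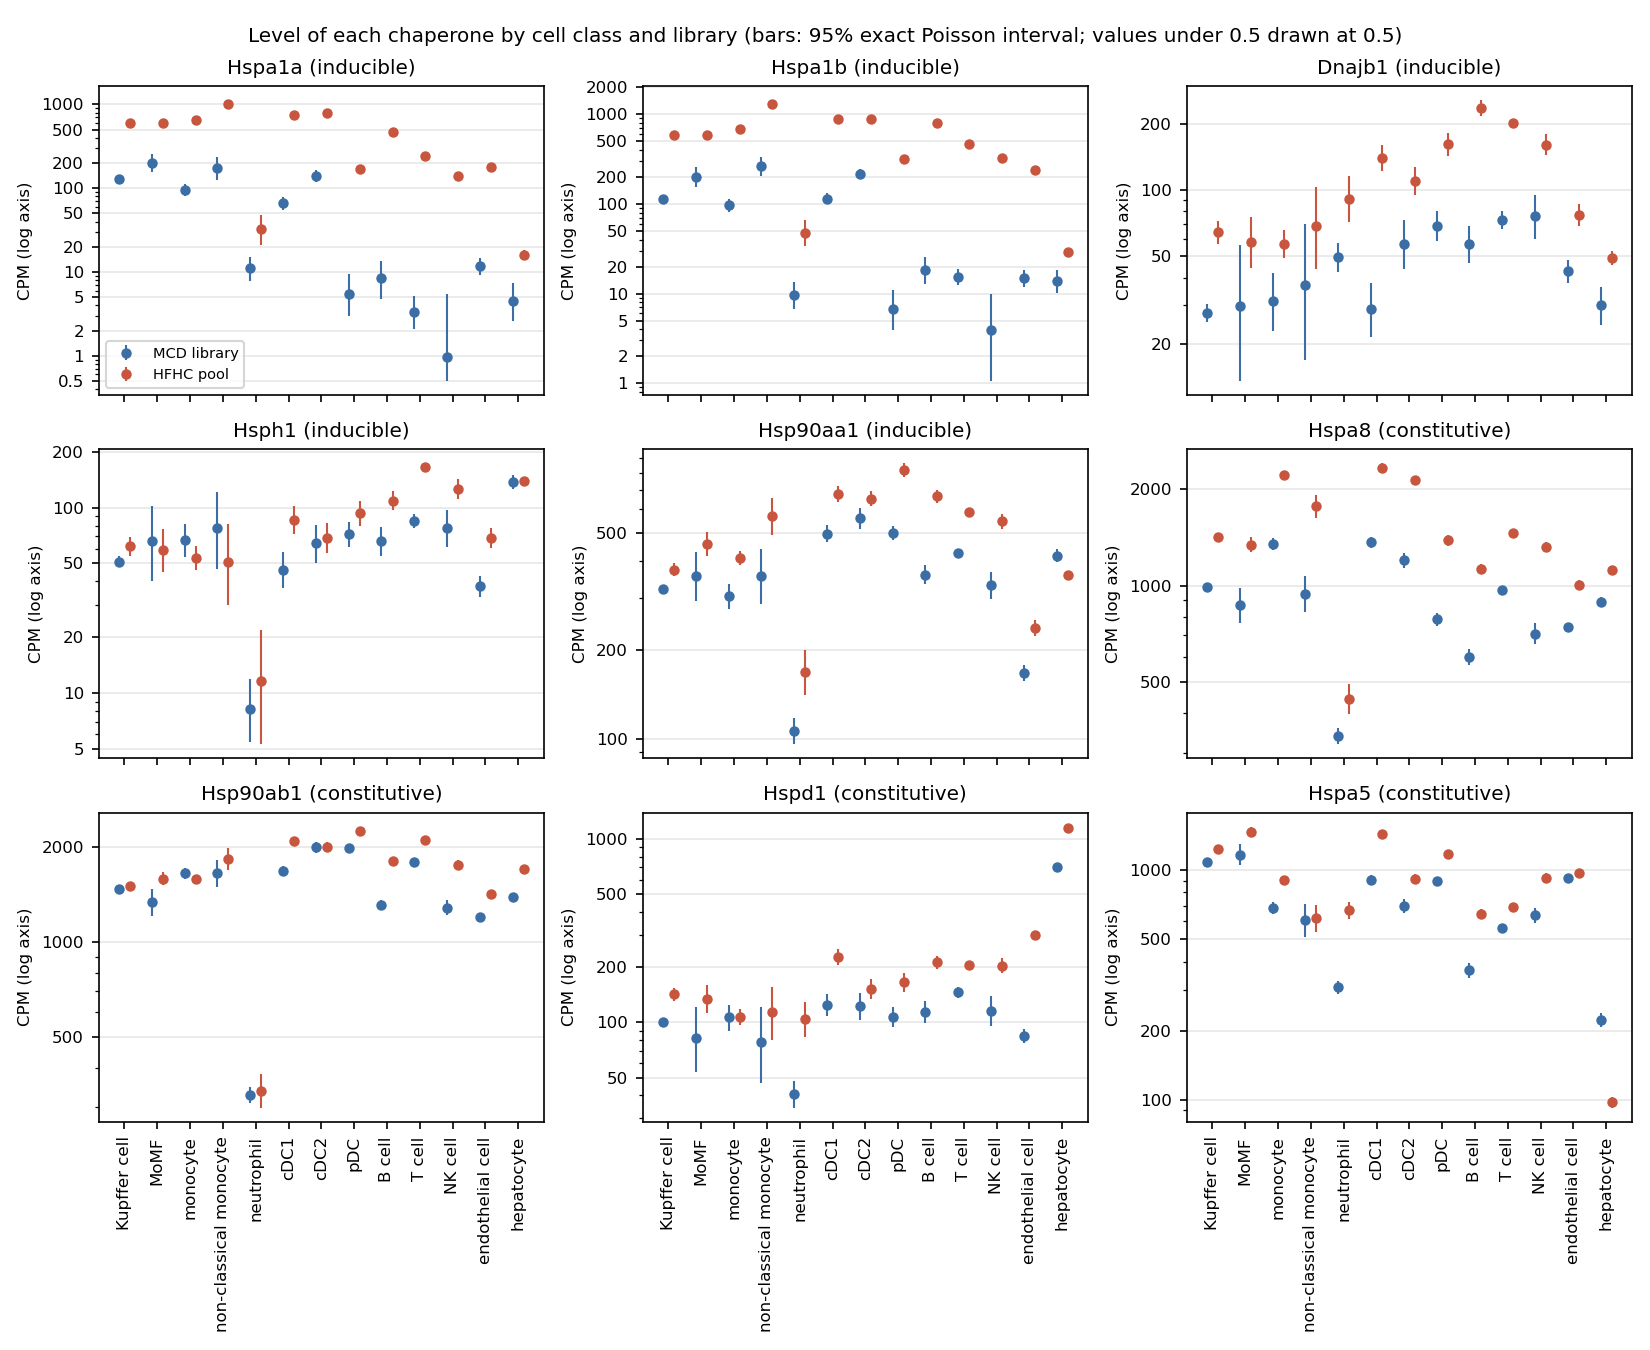
Level of each of the 9 chaperones (CPM, log axis) in the 13 classes (x axis) for the MCD library (blue) and the HFHC pool (red), with exact 95% Poisson intervals as bars and values under 0.5 CPM drawn at 0.5. Hspa1a and Hspa1b are split into 2 groups of classes in the MCD library and are high in 11 of the 13 classes of the pool, while Hsp90ab1 and Hspa8 differ by at most 6.66-fold between the classes of a library.

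The ratio between the libraries was largest in lymphoid cells and pDCs. Hspa1a passed the filter of 100 UMIs, summed over both libraries, in 12 classes and was higher in the pool by over 2-fold in 12 of them, and Hspa1b likewise in 12 of 12. In 8 of the 12 classes Hspa1a had under 100 UMIs in the MCD library and passed only through the pool. The same held for Hspa1b in these classes, so both counts are a description. Over all genes and classes, 5.43% of 75431 ratios were higher in the pool by over 2-fold and 3.68% lower. The log2 ratio of Hspa1a, pool over MCD, was 6.10 in T cells (interval 5.55 to 6.86), 5.70 in B cells (5.08 to 6.60) and 4.83 in pDCs (4.14 to 5.86). In myeloid cells it ran from 1.55 in MoMFs (1.19 to 1.97) to 3.50 in cDC1 (3.24 to 3.80), so its interval in T cells lay above those of the macrophages, monocytes and conventional dendritic cells. When classes were taken from marker UMIs, the T cell value was 4.89, with 51 UMIs in the MCD library in place of 21. The highest value, 6.18 in NK cells, rested on 1 UMI in the MCD library and had an interval of 4.68 to 12.48.

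Hspa1b was also highest in ratio in lymphoid cells and pDCs. Its log2 ratio was 6.08 in NK cells (5.04 to 8.28), 5.44 in pDCs, 5.39 in B cells, 4.90 in T cells and 3.99 in endothelial cells. In Kupffer cells it was 2.36 (2.28 to 2.45), with 1847 UMIs in the MCD library and 2525 in the pool. The limit of 4000 genes had removed 543 Kupffer cells of the pool, called by marker UMIs, and left 457, against 39 removed and 3179 left in the MCD library. In the removed cells Hspa1a and Hspa1b together were 112 CPM in the MCD library and 847 in the pool. The lowest value was 1.05 in hepatocytes (0.65 to 1.53), where 49 and 445 UMIs were counted. That hepatocyte ratio fell under 2-fold when ratios were centred on the class median (0.92), when 5 UMIs were added (0.95), when cells were thinned to 1000 UMIs (0.76), and when classes were taken from marker UMIs, with the upper gene limit or without it (0.91 in both).

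The share of Hspa1a in the sum of the twin genes differed between cell classes. In the pool, Hspa1a gave 50.7% of the UMIs in Kupffer cells (49.3 to 52.0), 50.3% in MoMFs and 49.0% in monocytes. It gave 36.9% in B cells (35.2 to 38.7), 35.0% in pDCs, 34.0% in T cells (32.9 to 35.2) and 29.9% in NK cells (27.0 to 32.8). The intervals of B, T and NK cells lay below those of Kupffer cells and MoMFs. The share was 47.4% in cDC2, 46.2% in cDC1, 43.6% in non-classical monocytes (40.1 to 47.2), 43.3% in endothelial cells and 40.3% in neutrophils. Hepatocytes, at 35.6% (32.0 to 39.3), lay in the range of the lymphoid classes. In the MCD library Kupffer cells gave 53.0% and T cells 17.8% (11.4 to 25.9), the latter from 118 UMIs. With T cells taken from marker UMIs, Hspa1a gave 51 of 186 UMIs there, a higher share than that interval holds. The transcripts share 58.8% (Hspa1a) and 62.3% (Hspa1b) of their 50-base windows, but none of the windows in their last 500 bases. Where along the transcripts the reads fell was not measured. How the authors' pipeline assigned reads that fit both genes is not given in the sources used here, so the split is uncertain and the sum is the safer value.

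**Figure D2:**
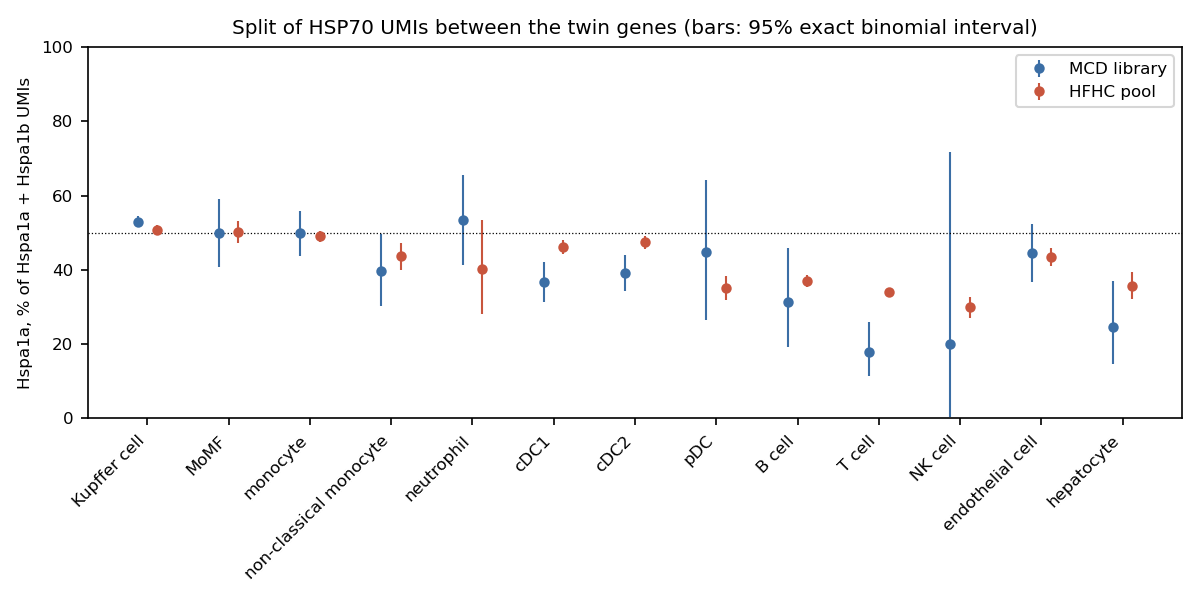
Hspa1a as a percent of Hspa1a plus Hspa1b UMIs (y axis) in each class (x axis) for the MCD library (blue) and the HFHC pool (red), with exact 95% binomial intervals. In the pool, Kupffer cells, MoMFs and monocytes sit between 49.0% and 50.7%, near the dotted line at 50%, non-classical monocytes at 43.6%, and T, NK and B cells and pDCs between 29.9% and 36.9%.

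At equal depth more cells of the pool carried HSP70 UMIs. When each cell was thinned to 1000 UMIs, 1.64% of 2619 T cells of the MCD library and 30.9% of 2637 T cells of the pool held an Hspa1a or Hspa1b UMI. In B cells the shares were 1.70% and 39.1%, and in Kupffer cells 15.9% and 47.7%. Without thinning they were 2.30% and 46.9% in T cells, at median depths of 1852 and 3439 UMIs. The shares were lowest in the pool in hepatocytes (3.05%) and neutrophils (3.58%). No class is known to lack these genes, so the share that free RNA gives was not measured. Thinning left out 377 T cells of the MCD library and 7 of the pool.

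Cells of a class were uneven. In B cells of the pool, 46.1% of thinned cells held none of the UMIs of Hspa1a, Hspa1b, Dnajb1 and Hsph1, while 3.80% held 10 or more and the highest cell held 17. The tenth of cells with the most UMIs carried 51.0% of the sum, and the variance was 4.64 times the mean. In hepatocytes of the pool the variance was 1.25 times the mean and 82.0% of cells held none. For the 4 constitutive members, the variance over the mean was 1.52 in the same B cells, and the median cell held 3 UMIs. In B cells of the MCD library the order turned, with 1.41 for the inducible and 1.47 for the constitutive sum. It was also turned there in monocytes (1.47 and 1.90), pDCs (1.07 and 1.39), T cells (1.11 and 1.87) and NK cells (0.98 and 1.70). The same held there for endothelial cells (1.16 and 1.26) and hepatocytes (1.05 and 1.17). In neutrophils (1.41 and 1.43) and hepatocytes (1.25 and 1.28) of the pool the constitutive value was also the higher one. This measure depends on the mean, and at a low mean it nears the value that counting error alone gives. The inducible sum had the lower mean, 0.165 against 2.35 UMIs in a thinned B cell of the MCD library. The turned order therefore cannot show which sum was the more uneven.

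**Figure D3:**
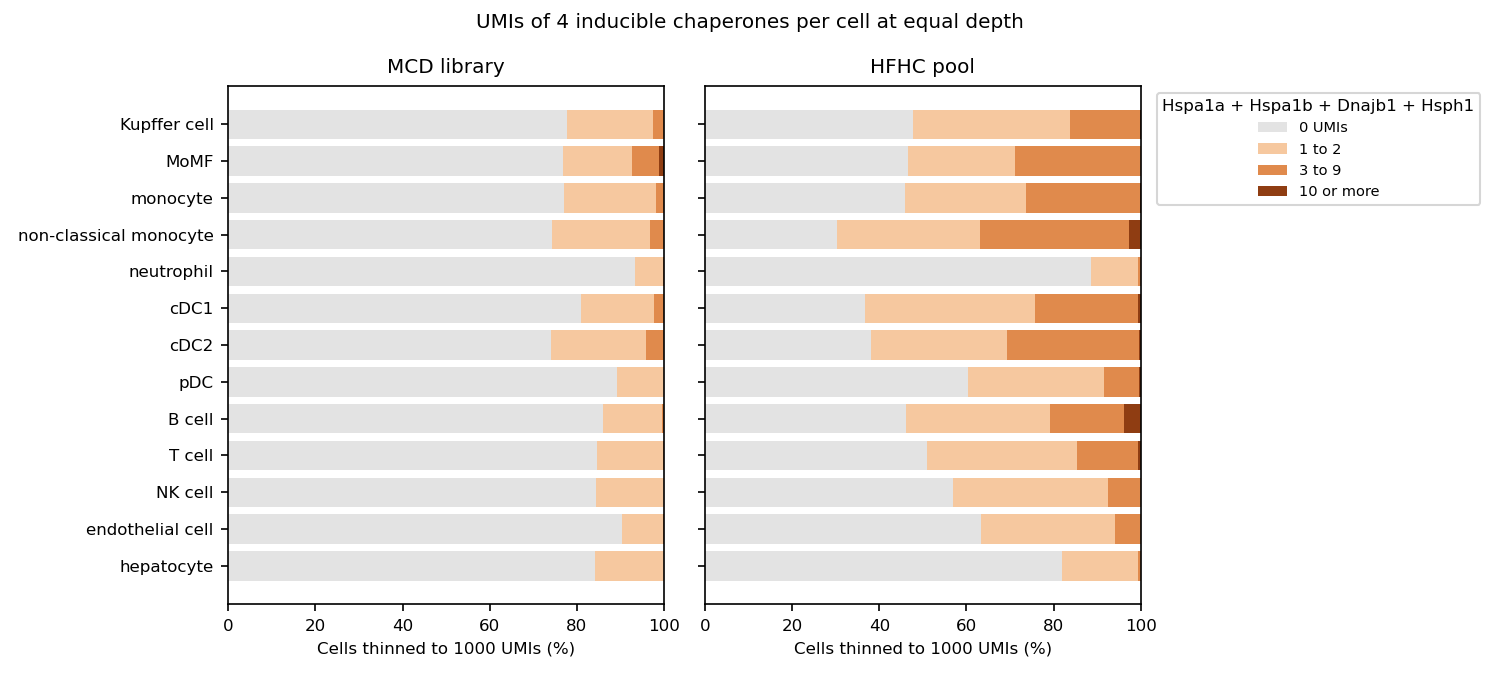
Percent of cells (x axis, cells thinned to 1000 UMIs) of each class (y axis) with 0, 1 to 2, 3 to 9 or 10 or more UMIs of Hspa1a, Hspa1b, Dnajb1 and Hsph1 together, for the MCD library (left) and the HFHC pool (right). Cells without any fall from 86.1% to 46.1% in B cells and are 84.3% and 82.0% in hepatocytes. Before thinning, Hsph1 gave 487 of 658 of these UMIs in hepatocytes of the MCD library and 2120 of 3559 in the pool.

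Dnajb1, the J-domain partner of HSP70 (chromosome 8, 83608193 to 83612653, plus strand), was higher in the pool in all 11 classes that passed the filter and by over 2-fold in 6 of them. Its CPM went from 56.7 to 236 in B cells, from 73.1 to 201 in T cells and from 28.7 to 139.9 in cDC1. The log2 ratio was 2.26 in cDC1 (1.84 to 2.75), 2.04 in B cells (1.76 to 2.36), 1.46 in T cells, 1.23 in pDCs, 1.22 in Kupffer cells (0.99 to 1.43) and 1.07 in NK cells (0.73 to 1.46). The smallest was 0.70 in hepatocytes. Unlike the HSP70 genes, Dnajb1 was not lower in lymphoid than in myeloid cells in the MCD library: NK cells (75.8 CPM) and T cells had the highest levels and Kupffer cells (27.7 CPM) the lowest.

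Hsph1, the exchange factor of HSP70 (chromosome 5, 149614287 to 149636376, minus strand), was not past 2-fold in any of 10 classes. Its log2 ratio ran from -0.33 in monocytes (-0.69 to 0.06) to 0.95 in T cells (1.94-fold, 1.76 to 2.14), where the level went from 85.2 to 165 CPM. It was 0.89 in cDC1, 0.87 in endothelial cells, 0.72 in B cells and 0.01 in hepatocytes (-0.13 to 0.16). In hepatocytes the level was 138 CPM in the MCD library and 139 in the pool. Hepatocytes held the highest Hsph1 level of the MCD library and were second to T cells in the pool, although their HSP70 level was among the lowest.

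Hsp90aa1, the inducible HSP90 gene (chromosome 12, 110690605 to 110702728, minus strand), was counted among the inducible members. It passed the filter in all 13 classes and was past 2-fold in none, as was the case for Hspa8 and Hsp90ab1. Its log2 ratio ran from -0.22 in hepatocytes (-0.30 to -0.14) to 0.88 in B cells (1.84-fold, 1.68 to 2.02), with 0.72 in NK cells, 0.71 in pDCs and 0.22 in Kupffer cells. In the MCD library its levels were highest in dendritic cells, with 559 CPM in cDC2, 499 in pDCs and 497 in cDC1. In the pool they were 816 in pDCs, 677 in cDC1, 664 in B cells and 652 in cDC2. They were lowest in neutrophils, at 106 and 168 CPM.

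Among the constitutive members, Hspa8, the cytosolic HSC70 (chromosome 9, 40800984 to 40810087, plus strand), was higher in the pool in all 13 classes and past 2-fold in none. The log2 ratio ran from 0.33 in hepatocytes (0.28 to 0.39) to 0.91 in B cells (1.88-fold, 1.75 to 2.01). In monocytes the level went from 1349.6 to 2213 CPM and in cDC1 from 1367 to 2326. These were the highest classes of each library, and their intervals overlapped in both. Neutrophils were the lowest, at 339.7 and 445 CPM. Beside these values, the median ratio of all genes tested lay between -0.04 and 0.13 over the classes.

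Hsp90ab1, the constitutive HSP90 gene (chromosome 17, 45567775 to 45573271, minus strand), had the smallest median ratio over the classes of the 9 members (0.24). Its ratios ran from -0.06 in monocytes (-0.13 to 0.01) to 0.46 in B cells (0.39 to 0.53). In cDC2 the level was 2002 CPM in the MCD library and 2005 in the pool. It was lowest in neutrophils, at 328 and 338 CPM, and in the other 12 classes lay between 1201 and 2002 CPM in the MCD library and between 1422 and 2253 in the pool.

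Hspd1, the mitochondrial HSP60 (chromosome 1, 55077835 to 55088243, minus strand), marked the hepatocytes. Its level there was 702 CPM in the MCD library and 1149.6 in the pool, while the other 12 classes lay between 40.7 and 145 CPM in the first and between 104 and 298 in the second. At 1000 UMIs a cell, 47.5% and 65.6% of hepatocytes held an Hspd1 UMI. The ratio between the libraries was past 2-fold in endothelial cells, from 84.7 to 298 CPM (log2 1.81, 1.66 to 1.97), and in neutrophils, from 40.7 to 104 CPM (log2 1.36, 0.94 to 1.76). In the endothelial class 9.68% of genes were higher in the pool by over 2-fold, and the share of hepatocyte marker UMIs was 0.130% in the MCD library and 0.545% in the pool, with none of the 9 markers at 0. In neutrophils that share was 0.127% and 0.202%. Without the cells that held over 1% of such UMIs, the log2 ratio was 1.36 in endothelial cells and 1.21 in neutrophils, and the part of the remaining hepatocyte RNA was not tested.

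Hspa5, the ER chaperone BiP (chromosome 2, 34771970 to 34777547, plus strand), was the only member with a ratio past 2-fold in each direction. Its level was highest in MoMFs, at 1169 and 1467 CPM, followed in the MCD library by Kupffer cells at 1088 and in the pool by cDC1 at 1435, whose interval overlapped that of MoMFs. It was lowest in hepatocytes, at 224 CPM in the MCD library and 97.4 in the pool (log2 -1.20, -1.32 to -1.07). In neutrophils it went from 308 to 667 CPM (log2 1.12, 0.96 to 1.27). As a mean over cells the fall in hepatocytes was under 2-fold, and so was the neutrophil ratio with classes from marker UMIs, at 0.91, or 0.88 without the upper gene limit as well. In the remaining 11 classes the log2 ratio lay between 0.02 and 0.81.

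The hepatocyte value depended on which hepatocytes were compared. Cluster 4 held 2264 of the 3416 hepatocytes of the MCD library and 730 of the 9150 of the pool, and Hspa5 was 263 and 198 CPM there. Clusters 5, 8 and 10 held most pool hepatocytes, and Hspa5 was 101 and 61.5 CPM in cluster 5 and 63.7 and 81.4 in cluster 8. In cluster 10 it was 85.9 CPM in the pool and higher in the MCD library. The MCD library held 69 cells in cluster 8 and 75 in cluster 10, so its values there rest on few UMIs. In cluster 11 it was 144 and 131 CPM. The pool was thus lower in 4 of these 5 clusters and higher in cluster 8. In hepatocytes 7.88% of all genes were lower in the pool by over 2-fold, and of the 20 other ER chaperone and unfolded protein response genes 10 were lower and 1 higher. The hepatocytes also differed in median mitochondrial share, 2.64% in the MCD library and 0.351% in the pool. Hspa5 and the other ER genes were not compared among hepatocytes of like share, so the part of this difference was not tested.

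T and NK cells were also split unequally between clusters, and there the HSP70 genes were higher in the pool within each of the larger clusters. Cluster 6 held 2136 of the 2996 T cells of the MCD library, and cluster 7 held 1577 of the 2644 of the pool. Hspa1b went from 12.1 to 553 CPM in cluster 6 and from 31.7 to 476 in cluster 7. In NK cells it went from 4.25 to 386 CPM in cluster 17 and from 3.09 to 263 in cluster 18. Kupffer cells differed between clusters: Hspa1a went from 141 to 665 CPM in cluster m0, which held most of them, and from 35.5 to 65.7 in cluster m1, with 618 cells of the MCD library and 47 of the pool, which is under 2-fold. For Hspa1b, monocytes of clusters m3 and m5 went from 54.7 to 543 and from 144 to 913 CPM.

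Set side by side, the inducible members gave 30 ratios above 2-fold and 0 below in 58 gene-by-class ratios, or 51.7%, and the constitutive members gave 3 above and 1 below in 51, or 5.88% and 1.96%. The constitutive share lay close to the 5.43% of all genes. Of the 30, 24 came from Hspa1a and Hspa1b and 6 from Dnajb1, so the count rests on 3 genes. Most of the HSP70 ratios passed the UMI filter only through the pool, so the contrast is a description. With Hspa1a and Hspa1b summed as 1 gene, 19 of 47 ratios were past 2-fold. The counts varied by class. In Kupffer cells 3 of the 9 members were past 2-fold upwards and 0 downwards, against 5.14% and 3.36% of all genes. B cells had 3 of 9 (3.97% and 2.14% of all genes), T cells 3 of 9 (5.77% and 3.07%), NK cells 3 of 9 (3.83% and 2.34%), pDCs 3 of 9 (2.87% and 2.06%) and cDC1 3 of 9 (3.36% and 2.45%), none of them downwards. Monocytes had 2 of 9 (3.23% and 2.69%), cDC2 2 of 9 (3.32% and 2.63%), MoMFs 2 of the 7 tested (6.31% and 4.65%) and non-classical monocytes 2 of the 6 tested (4.91% and 2.45%). Endothelial cells had 3 of 9 (9.68% and 4.61%), of which 1 was constitutive. Neutrophils had 2 of the 6 tested, both constitutive (8.38% and 4.51%), and hepatocytes had 2 upwards and 1 downwards (6.56% and 7.88%).

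In each of the 13 classes the median ratio of the inducible members exceeded that of the constitutive members. The gap was over 1 (log2) in 5 classes: 2.15 in non-classical monocytes, 1.55 in cDC1, 1.19 in B cells, 1.06 in MoMFs and 1.06 in T cells. It was 0.39 in hepatocytes and NK cells and 0.03 in neutrophils, where only Dnajb1 and Hsp90aa1 passed the filter as inducible members. In non-classical monocytes and MoMFs, Dnajb1 and Hsph1 did not pass it, and with a filter of 20 UMIs neither class had a gap over 1. Wherever all 5 inducible members were tested, their median was the ratio of Dnajb1, except in endothelial cells (Hsph1). The inducible members did not exceed the constitutive ones gene by gene. Over the classes, the median ratios of Hsph1 (0.53) and Hsp90aa1 (0.47) lay below those of Hspa8 (0.71) and Hspd1 (0.69). Both lay above those of Hspa5 (0.38) and Hsp90ab1 (0.24).

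**Figure D4:**
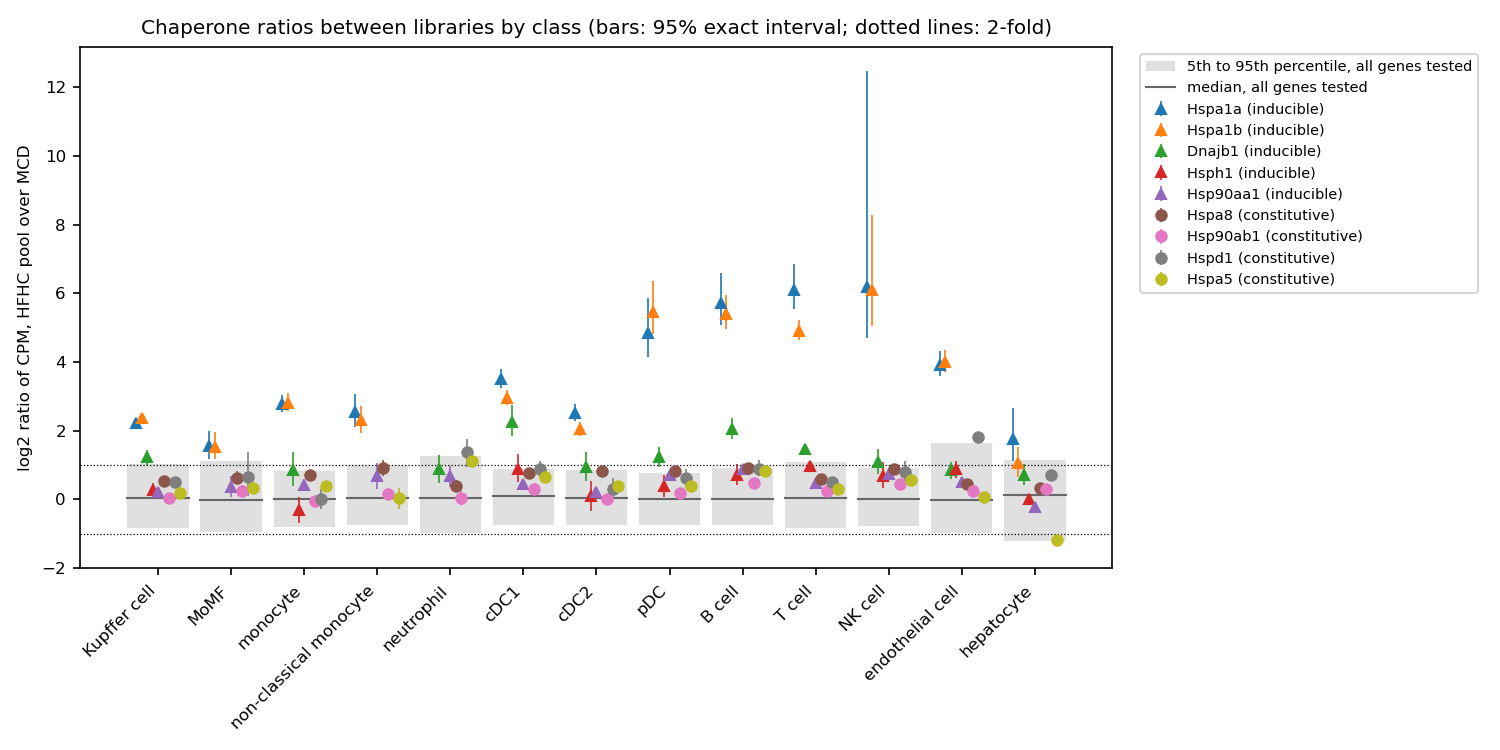
Log2 ratio of CPM, HFHC pool over MCD (y axis), of the 5 inducible (triangles) and 4 constitutive members (circles) in each class (x axis), for members with at least 100 UMIs, with exact 95% intervals. Grey bands span the 5th to 95th percentile of all genes tested in the class, and the dotted lines mark 2-fold. Hspa1a and Hspa1b lie above the band in each class where they are drawn except hepatocytes, where Hspa1b (1.05) lies inside it.

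The class with the highest level was the same in both libraries for 4 members. Hspa8 was highest in cDC1, Hspa5 in MoMFs, Hspd1 in hepatocytes and Hspa1b in non-classical monocytes in both libraries. The intervals of the top class and the next overlapped for Hspa8 in both libraries, for Hspa5 in both and for Hspa1b in the MCD library. Over the 13 classes, Spearman's rho between the libraries was 0.92 for Hspa5, 0.89 for Hspa8, 0.82 for Hspa1b and Hsp90aa1, 0.79 for Hsp90ab1, 0.76 for Hspa1a, 0.70 for Dnajb1, 0.69 for Hspd1 and 0.52 for Hsph1. These are descriptions over classes that share a library and its depth.

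Depth and mitochondrial share were set beside the result, since cells of the pool were deeper in every class. Among T cells of 2001 to 4000 UMIs, the summed level of the same 4 inducible genes was 169 CPM in the MCD library and 1228 in the pool. Among B cells of that depth it was 136 and 1676 CPM. In Kupffer cells of the pool it rose with depth, from 331 CPM (24 cells) at up to 1000 UMIs to 1403 above 8000 UMIs, and in B cells it fell from 2594 CPM at 1001 to 2000 UMIs to 1134 at 4001 to 8000. Among T cells with a mitochondrial share of 5 to 10% it was 175 and 1050.2 CPM. The pool was thus higher within each depth bin that both libraries filled in these classes, while hepatocytes had 176 and 231 CPM at 2001 to 4000 UMIs.

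**Figure D5:**
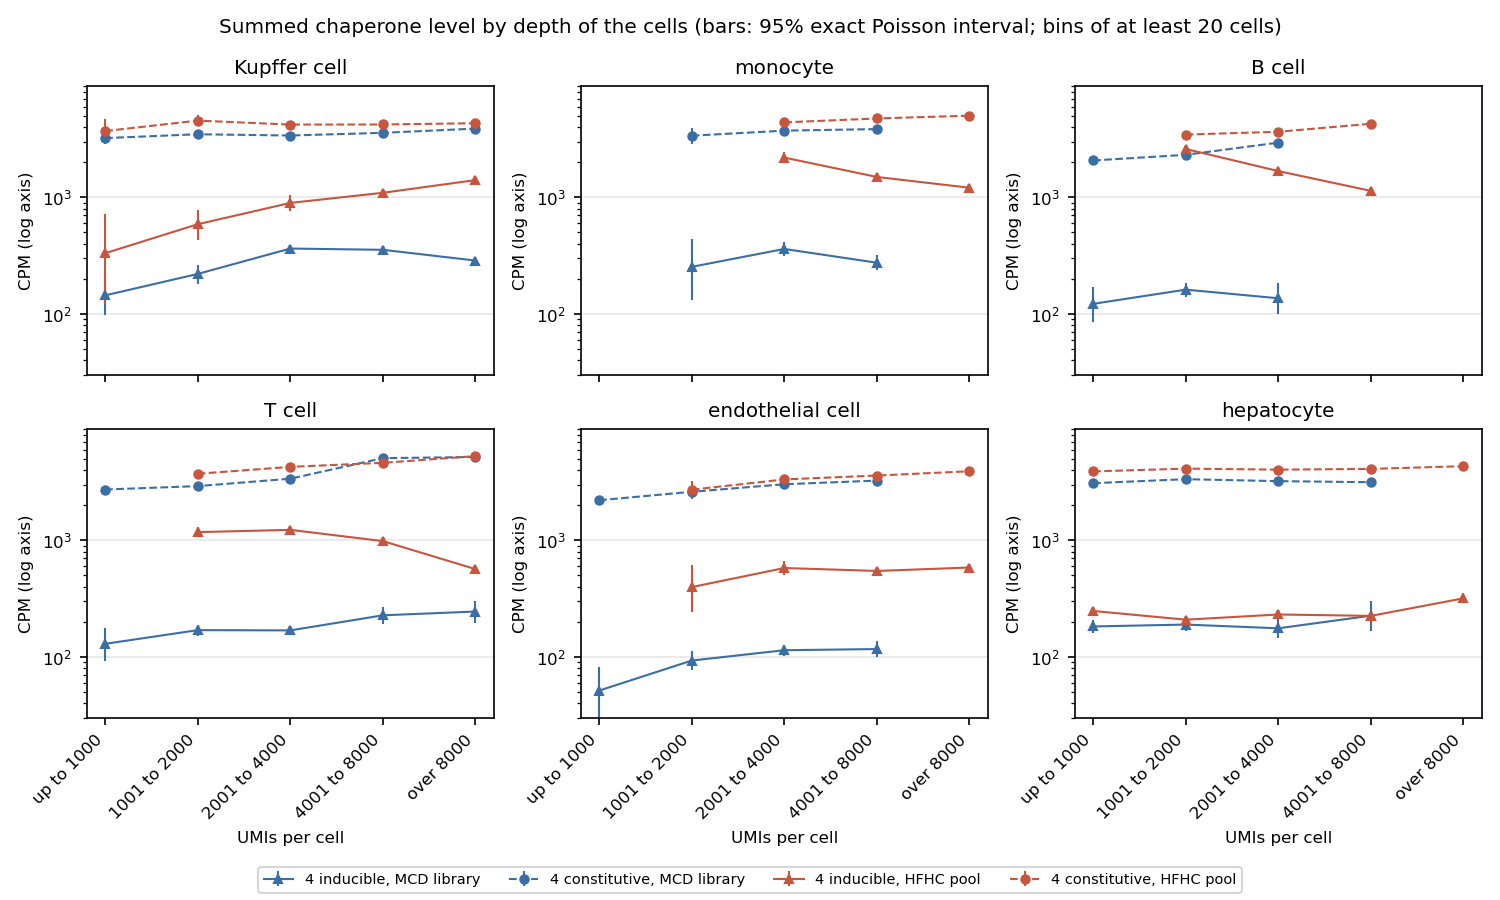
Summed CPM (y axis, log scale) of 4 inducible members (triangles: Hspa1a, Hspa1b, Dnajb1, Hsph1) and of the 4 constitutive members (circles) by UMIs per cell (x axis) in 6 classes, for the MCD library (blue) and the HFHC pool (red), in bins of at least 20 cells with exact 95% Poisson intervals. The red triangles lie above the blue ones in each shared bin of Kupffer cells, monocytes, B, T and endothelial cells. In hepatocytes, where Hsph1 gave most of the inducible UMIs, the curves nearly meet.

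Immediate-early genes, transcription factors and regulators that switch on within minutes of many stimuli, moved with the HSP70 genes. Of 153 ratios of 13 such genes, 99 were higher in the pool by over 2-fold and 1 was lower, beside 5.43% and 3.68% of all gene-by-class ratios. The median ratios over classes were 2.68 for Fosb, 2.29 for Ier2, 2.18 for Atf3 and 2.12 for Fos, and 0.30 for Dusp1. Their summed level went from 2068 to 5525 CPM in T cells, from 4231 to 9524 in B cells and from 4663 to 8981 in Kupffer cells, with every gene of the list above 0 in these classes, and was 1265 and 1217 in hepatocytes. Neutrophils held the highest summed levels, 17892 and 29358 CPM, with HSP70 at 20.8 and 79.7. The part of cell isolation in these differences was not tested and cannot be told apart from the diets here.

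Within a class of the pool, rank correlations between members over cells were weak apart from that of the twin genes. At 1000 UMIs, the pair Hspa1a and Hspa1b had the highest Spearman's rho of the 36 member pairs in all 10 pool classes with at least 200 cells. The value was 0.50 in cDC2 (237 cells), 0.46 in monocytes (513), 0.42 in B cells (816), 0.36 in Kupffer cells (480), 0.34 in T cells (2637) and 0.065 in hepatocytes (5146). In the MCD library another pair was highest in neutrophils, pDCs, B cells, NK cells, endothelial cells and hepatocytes. The rho of the twin genes was 0.089 in these neutrophils and between -0.013 and -0.002 in the others. In these MCD classes each twin gene was found in at most 1.40% of thinned cells, and in 0.197% of 508 NK cells. With so few cells, the rho there cannot show whether the twin genes vary together. In the remaining MCD classes the rho of the twin genes was the highest, from 0.19 in T cells to 0.24 in cDC2. The sum of the 4 inducible genes had a rho with the immediate-early sum of 0.31 in pool Kupffer cells, 0.14 in endothelial cells, 0.064 in T cells and -0.078 in cDC2, and 0.0038 for the B cells. Its rho with the constitutive sum was at most 0.21 in the pool. Each value is over cells of 1 library, whose counts are sparse.

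Of 25 cytosolic co-chaperones and other HSF1 targets, 16 of 206 ratios were higher in the pool by over 2-fold and 1 was lower, or 7.77% and 0.485%, beside 5.43% and 3.68% of the ratios of all genes. The largest median ratios were 1.24 for Hspb8 (4 classes), 0.98 for Hspb1 (4 classes), 0.96 for Stub1 and 0.95 for Cdc37, and the smallest were -0.21 for Ptges3 and -0.20 for Dnaja4 among genes tested in at least 3 classes. The lower ratio was that of Serpinh1, a collagen chaperone tested in 2 classes and named after its values were seen. HSPB1 and HSPB8 are small heat shock proteins, and CDC37 brings kinases to HSP90.

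Of 7 subunits of TRiC, the ring that folds actin and tubulin, 10 of 80 ratios (12.5%, beside 5.43% of all genes) were higher by over 2-fold, 8 of them from Cct7 (median 1.13) and 2 from Cct5 (0.86). The median of the list was positive in each of the 13 classes, from 0.25 to 0.79. Of 8 mitochondrial chaperones and proteases, 7 of 61 (11.5%) were higher, 5 of these in endothelial cells, where 9.68% of all genes were higher, with medians of 0.93 for Clpx, 0.90 for Lonp1 and 0.11 for Hspe1, the partner of Hspd1. Of 7 ubiquitin and proteasome genes, 2 of 85 (2.35%) were higher, both from Sqstm1 (median 0.41), and the smallest median was -0.27 for Psmd11.

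Of the 20 genes of the ER list, 17 of 229 ratios were higher and 17 lower, or 7.42% each way, beside 5.43% and 3.68% of all genes. The higher ones were mostly transcription factors: Atf4 was past 2-fold in 10 of 13 classes (median 1.22) and Ddit3 in 6 of 7 (1.31). The lower ones were mostly chaperones and folding factors: Sdf2l1 was lower by over 2-fold in 7 of 11 classes (median -1.06), and 10 of the 17 lay in hepatocytes, where 7.88% of all genes were lower. Xbp1 had a median of -0.51. In hepatocytes the median of the list was -0.95, beside -1.20 for Hspa5, and in the other classes it lay between -0.23 and 0.28.

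Over the 26 points of class and library, the genes most like the mean of Hspa1a, Hspa1b, Dnajb1 and Hsph1 on the log2(CPM + 10) scale were Rps19 (Pearson's r = 0.87), Rpsa (0.84), Jun (0.80), Rpl29 (0.80), Hspa8 (0.80), Eef2 (0.80), Rpl10 (0.80), Rpl18 (0.79), Arhgdia (0.78) and Gnb2 (0.76), of 763 genes ranked. After each library's mean was subtracted, Hspa8 was again among the first, with r = 0.72 at rank 4, after Rps29 (0.77), Ptp4a2 (0.76) and Pou2f2 (0.74), and before Rack1, Calr, Eif4a1, Cd74 and Eif3k. Of the 4 members ranked (Hspa8, Hsp90aa1, Hsp90ab1 and Hspa5), only Hspa8 was in both lists of 10. The points share libraries and depth, and no p is given.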

How the data were processed

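Single-cell transcriptomes were made with the BD Rhapsody whole transcriptome assay. The authors deposited UMI counts per cell and gene (molecules per cell after the pipeline's error correction) from the BD Rhapsody WTA Analysis Pipeline version 1.10.1 per the file headers, with GRCm38 as the genome, and the tables hold whole numbers without normalization. The MCD table held 30734 cells with 53720863 UMIs and that of the HFHC pool 21601 cells with 71981673 UMIs. The third sample is a sample-tag library with no transcriptome of its own.

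The study's own cell filter was applied (at least 200 and at most 4000 genes, mitochondrial UMIs up to 25%). They were clustered with Seurat 5.3.0 and sctransform 0.4.2 in R 4.3.3 at resolution 0.8 on 3982 genes without the chaperones, and myeloid cells were clustered again at resolution 0.5. Clusters were named from fixed markers, with at least 3 markers detected. The thresholds for a name or for calling a cluster mixed were chosen with the clusters in view. Of the kept cells, 3667 and 3400 stayed unnamed and 404 and 164 lay in mixed clusters. Doublets were kept, and those that Scrublet (scanpy 1.11.5) called, 8.13% and 1.95% of kept cells, were left out in an alternative.

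UMIs were summed per class and library and divided by the class total (CPM). Log2 ratios were computed with 1 UMI added to each count, for genes with at least 100 UMIs over both libraries, and no test was made with 1 library per condition. Past 2-fold means a log2 ratio beyond 1 in either direction. Intervals are exact 95% Poisson or Clopper-Pearson intervals (scipy 1.17.1). Only the log2 ratios and their interval were run on simulated data. These were Poisson counts, so the run could not show how the intervals hold for cells as uneven as those above. The 9 members and all gene lists were chosen with earlier results of these data known. Of each other list, at most the 4 genes with the largest and the 2 with the smallest median ratio over at least 3 classes were named, and other named genes were chosen after their values were seen. Cct6a was not analysed here, and some genes that the naming rule gives are not reported here.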

Additional observations from a re-analysis of the deposited data

Results flagged for a closer look

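Hspa5 differed in direction between cell classes: its log2 ratio, HFHC pool over MCD, was 1.12 in neutrophils and -1.20 in hepatocytes, and with 1 library per condition the difference was not tested. Under some alternatives either value lay under 2-fold (in hepatocytes as a mean over cells, and in neutrophils, at 0.91, with classes from marker UMIs). Within hepatocyte cluster 4 the levels were 263 CPM in the MCD library and 198 in the pool, and within cluster 11 they were 144 and 131. Within cluster 10 the level was 200 CPM in the MCD library, from 75 cells with 35005 UMIs in all, and 85.9 in the pool. In cluster 8 the pool was higher, at 81.4 CPM against 63.7 from 69 cells of the MCD library. A signal also lay in cells that the 13 classes do not include. In 17 cells of the MCD library and 64 of the pool with over 10 plasma cell marker UMIs, which were chosen after the data were seen and lie in a mixed cluster, Hspa5 reached 3117 CPM (2801 to 3458) and 4103 CPM (3960 to 4250). These levels lay above those of all 13 classes, while Hspa1a and Hspa1b together were 35.0 CPM (4 UMIs) and 141 CPM (107 UMIs).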

How the results depend on the processing

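No paired analysis was possible because each condition had 1 library and no replicate numbers. Of 1572 ratios compared under the alternatives, 1431 stayed within the interval of the reported value, 10 fell under 2-fold and 15 rose past it. The sign changed in 30, and none past 2-fold changed direction. In cells thinned to 1000 UMIs, 30 of 90 ratios lay outside the interval. With classes from marker UMIs 29 of 107 did, and 31 of 107 without the upper gene limit as well. The ratios compared were the same by construction with at least 20 UMIs (109 ratios), without a UMI filter (109) and with the HSP70 genes summed (85). The 30 inducible ratios past 2-fold became 19 with Hspa1a and Hspa1b summed, and the 4 constitutive ones became 21 at a threshold of 1.5-fold, where the inducible count was 45. The 5 classes with a gap over 1 between inducible and constitutive medians became 3 with at least 20 UMIs and 3 without a UMI filter (MoMFs and non-classical monocytes lost), 3 at a mitochondrial share of at most 10% (MoMFs and T cells lost), 11 with Hsp90aa1 counted as constitutive and 1 with the HSP70 genes summed, and were 7 in cells thinned to 1000 UMIs and 7 at a clustering resolution of 1.0. The 4 members with the same top class in both libraries became 2 in cells thinned to 1000 UMIs (Hsp90ab1 and Hspd1). They became 3 as a mean over cells, at a resolution of 1.0 and with classes from marker UMIs, and 5 without Scrublet doublets. Hspd1 was the only one of the 4 kept in each of these. For thinning, the mean over cells, doublets, the resolution, classes from marker UMIs and the mitochondrial limit the cause was not tested. The other changes follow from which ratios were counted. Leaving out cells whose index occurred in both libraries, an alternative chosen after seeing the data, changed none of these 4 counts. Depth limits the rarest values most, such as 1 Hspa1a UMI in NK cells of the MCD library.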

Other observations

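Of the 763 genes tested in all 13 classes, 12 were higher in the HFHC pool by over 2-fold in each class. Besides the immediate-early genes Ier2 and Jun they included Gnb2, a G protein subunit (median log2 ratio 3.79, lowest 3.43), the ribosomal protein genes Rps19 (2.69, lowest 2.23) and Rpsa (2.22, lowest 1.85), and Gm42418 (2.33, lowest 1.98). Of the 9 chaperones, 4 were tested in all 13 classes (Hsp90aa1, Hspa8, Hsp90ab1 and Hspa5) and none of these was among the 12. Hspa1a and Hspa1b were over 2-fold in the 12 classes in which they were tested. In most of these classes they passed the UMI filter only through the pool. Gnb2, Rps19, Rpsa, Jun and Eef2 were also among the 10 genes whose levels were most like the inducible chaperones before the library means were subtracted, and none of these 5 was among the 10 after it.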
